A study of Arabidopsis thaliana with 3 samples.

Results

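The 10 genes described here encode the 4 classes of histone H2A in Arabidopsis thaliana. They were taken from the deposited table by locus identifier and are 10 of 33602 listed transcripts, with 1 transcript listed per locus. HTA1 (AT5G54640) and HTA10 (AT1G51060) encode canonical H2A, and HTA3 (AT1G54690) and HTA5 (AT1G08880) encode H2A.X. HTA6 (AT5G59870), HTA7 (AT5G27670) and HTA12 (AT5G02560) encode H2A.W, and HTA8 (AT2G38810), HTA9 (AT1G52740) and HTA11 (AT3G54560) encode H2A.Z. All 10 names stand in the RefSeq gene table, HTA1 under the symbol RAT5, HTA3 under GAMMA-H2AX and HTA5 under H2AXA. The genes HTA2, HTA4 and HTA13 bring the family to 13 and are given only where the family total needs them.

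Histone H2A pairs with H2B in the nucleosome, the particle around which DNA is wound. Canonical H2A is made mainly while DNA is copied. H2A.X is phosphorylated at DNA breaks by the kinases ATM and ATR, H2A.W marks plant heterochromatin, and H2A.Z is exchanged into nucleosomes near gene starts by the SWR1 complex. Plant histone mRNAs carry poly(A) tails, so a poly(A)-primed method can copy them.

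RNA was sequenced with Smart-seq2 from sperm cells, the male gametes inside pollen, sorted by fluorescence from wild-type Col-0 plants. The labels describe 3 sperm libraries and do not say whether they came from separate plants or sorts. The table gives their mean in TPM, a share of all transcripts corrected for length, which allows genes to be set side by side. There is 1 mean per gene, so the values have no error, no test was possible, and it is not known which neighbours in the order of levels differ beyond the spread between libraries. In a bulk sample fewer cells of a type and less RNA per cell cannot be told apart.

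The label was checked on marker genes, beside a share of 21.7% of all listed transcripts at or above 1 TPM. All 7 male germline markers were at or above 1 TPM, from 52.8 to 16145 TPM with a median of 87.9 TPM. Of 8 markers of the vegetative cell, which encloses the sperm, 7 were at or above 1 TPM, from 2.02 to 127 TPM, the median of the 8 being 34.9 TPM, and TIP1;3 was at 0.027 TPM. The 4 leaf markers ranged up to 0.245 TPM, the 4 dry seed markers up to 0.570 TPM, the 4 root meristem markers up to 0.039 TPM and the 3 floral bud markers up to 0.017 TPM, and the shoot meristem markers STM, CLV3 and WUS were listed at 0. Markers of some other tissues were present. The carpel marker SHP1 was at 228 TPM, while the other 3 carpel markers ranged up to 0.017 TPM. Of 4 embryo markers 3 were at or above 1 TPM, BBM at 29.8 TPM, WOX2 at 4.76 TPM and LEC1 at 3.75 TPM, and WOX8 was at 0.046 TPM. Of 2 root markers COBL9 was at 6.66 TPM and PRP3 was listed at 0. What part RNA of other cells has in the H2A values was not tested.

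Among the 10 genes, most of the RNA in sperm was that of canonical H2A. The 10 genes together held 0.046% of all TPM. HTA1 was at 322 TPM, place 251 among all listed transcripts, and HTA10 was at 92.3 TPM, place 827. Each of the other classes had a single gene at or above 1 TPM. These were HTA11 for H2A.Z at 22.7 TPM, HTA6 for H2A.W at 19.0 TPM and HTA5 for H2A.X at 2.46 TPM. The remaining members were HTA7 at 0.366 TPM, HTA9 at 0.274 TPM, HTA3 at 0.173 TPM, HTA12 at 0.128 TPM and HTA8 at 0.108 TPM. None of the 10 was listed at 0, as 14480 of the 33602 transcripts were.

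**Figure D1:**
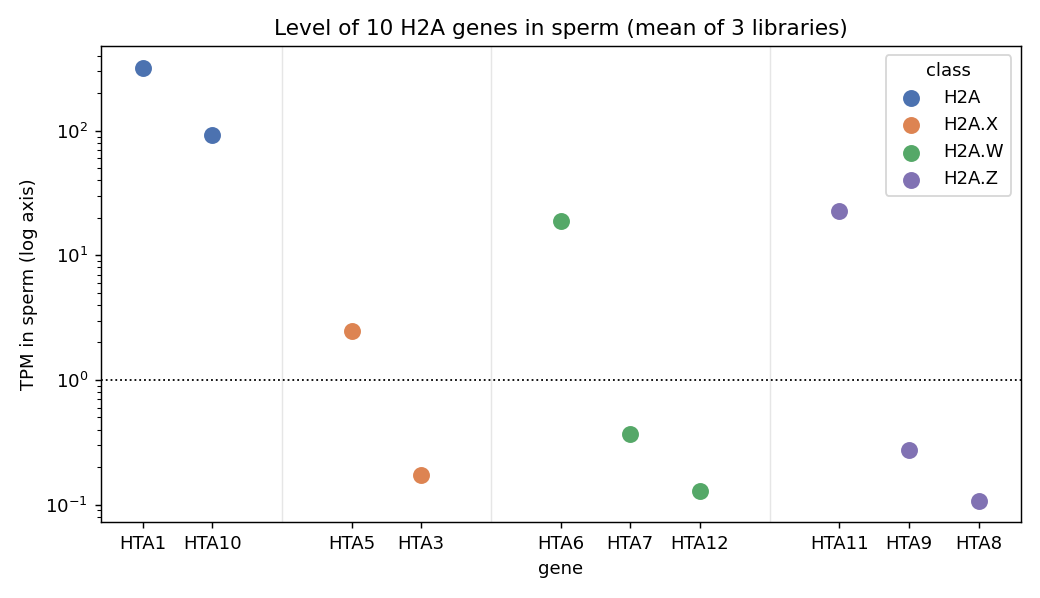
Points give the TPM in sperm, on a log axis, of each of the 10 genes, grouped and coloured by class, with a dotted line at 1 TPM. HTA1 is the highest at 322 TPM, and HTA11, HTA6 and HTA5 are the only points of their classes above the line.

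At or above 1 TPM were 5 of the 10 genes, beside 21.7% of all listed transcripts. At or above 10 TPM were 4 of the 10, beside 9.50% of all, and at or above 100 TPM was HTA1, 1 of the 10, beside 2.29%. The median of the 10 genes was 1.41 TPM, against 0.021 TPM over all listed transcripts and 0.352 TPM over the 19122 transcripts above 0. The lower 5 members were close to that last value or under it. HTA7 exceeded 50.5% of the transcripts above 0, and HTA8, the lowest, exceeded 33.9% of them.

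By class, canonical H2A held 90.2% of the 459 TPM that the 10 genes summed to. H2A.Z held 5.02%, H2A.W 4.25% and H2A.X 0.574%. The class sums were 414 TPM for H2A, 23.1 TPM for H2A.Z, 19.5 TPM for H2A.W and 2.64 TPM for H2A.X. HTA1 alone made up 70.1% of the sum of the 10 and HTA10 20.1%. Counting HTA2, HTA4 and HTA13 as H2A, the share of that class was 90.4% of 470 TPM. HTA4 was listed at 0, so the class it is counted in does not affect the shares.

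**Figure D2:**
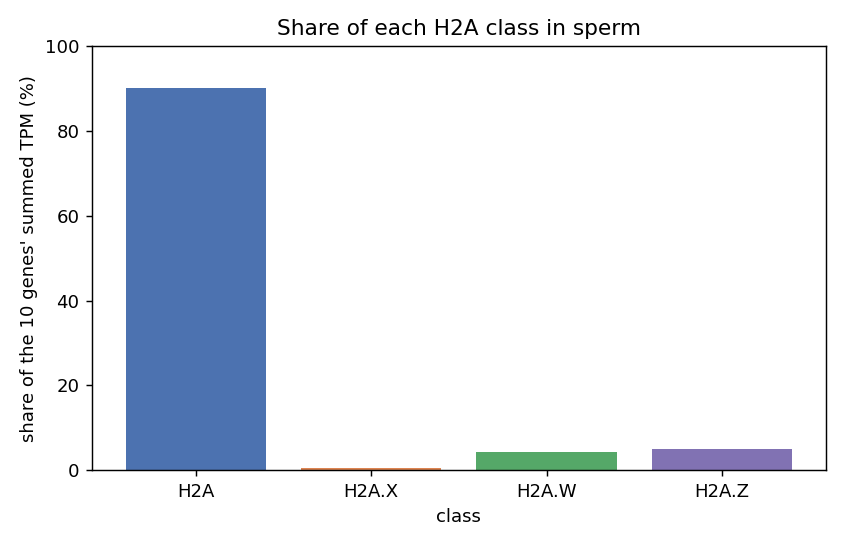
Bars give the percentage of the summed TPM of the 10 genes held by each class in sperm. The H2A bar reaches 90.2%, and the other 3 classes reach at most 5.02%.

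Levels within each class were unequal. HTA1, known from mutants that resist transformation by Agrobacterium, was at 3.49 times the level of HTA10 and held 77.7% of the sum of these 2 genes. Among the H2A.X genes HTA5 was at 14.3 times HTA3 and held 93.4%. Among the H2A.W genes HTA6 was at 51.9 times HTA7 and 149 times HTA12, and it held 97.5%. Among the H2A.Z genes HTA11 was at 82.7 times HTA9 and 211 times HTA8, and it held 98.3%. The lower member of each of these ratios outside canonical H2A was under 1 TPM, so that a small change in it would move the ratio far. Genes of a class are similar in sequence, and the estimation step could divide reads wrongly between them, to which class sums are less exposed. RefSeq holds 4 transcripts for HTA8 and 2 each for HTA11 and HTA12, of which the table lists 1, so reads of the others could be lost.

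The digits of the means tell a little about the single libraries. A library value with 6 significant digits leaves finer decimals in the mean the lower it is. The mean of HTA1 carried no decimals finer than libraries of 100 TPM or more leave, and those of HTA10, HTA11 and HTA6 none finer than libraries of 10 TPM or more. That of HTA5 carried none finer than libraries of 1 TPM or more. The means of HTA3 and HTA12 carried decimals that libraries of 0.1 TPM or more would not leave. A library at exactly 0, or one ending in zeros, leaves no trace, so the spread of none of the 10 is known.

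Genes that place or modify H2A covered a wide range in sperm. Of 10 genes for H2A.Z exchange, 3 were at or above 1 TPM, a share near the 21.7% of all listed transcripts, and the median of the 10 was 0.203 TPM. PIE1, the ATPase of the SWR1 complex, and ARP4 were listed at 0. ARP6 was at 0.079 TPM and SWC6, called SEF in the reference table, at 0.736 TPM. The highest were AT2G47210, listed here as SWC4 with no symbol in the reference table, at 21.5 TPM and SWC2 at 7.72 TPM. The third was INO80, a remodeller gene, at 7.66 TPM.

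Of 8 genes for H2A-H2B chaperones and the remodeller DDM1, 5 were at or above 1 TPM, beside 21.7% of all listed transcripts. The median of the 8 was 28.5 TPM. DDM1, on which H2A.W placement depends, was at 240 TPM, beside 19.5 TPM for the H2A.W genes in sum. SSRP1 and SPT16, the subunits of the chaperone FACT, were at 139 TPM and 94.3 TPM. NRP1, of the NAP1 family, was listed at 0 and NAP1;3 was at 0.039 TPM, while NRP2 was at 47.2 TPM.

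For H2A.X, 2 of 4 kinase and damage response genes were at or above 1 TPM, beside 21.7% of all listed transcripts. ATM was at 0.323 TPM and ATR at 0.0086 TPM. BRCA1, a DNA repair gene, was at 121 TPM and SOG1, the transcription factor of the plant damage response, at 5.32 TPM. Of 5 genes for H2A ubiquitin ligases 2 were at or above 1 TPM, beside the same 21.7%. BMI1B, called DRIP1 in the reference table, was at 398 TPM and BMI1A at 327 TPM, beside 322 TPM for HTA1. RING1A was at 0.042 TPM and RING1B was listed at 0.

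All 12 replication genes on the list were at or above 1 TPM, beside 21.7% of all listed transcripts. Their median was 44.1 TPM and their range 1.67 to 4069 TPM. Of the 5 genes for H3.1, the H3 made during replication, 1 was at or above 1 TPM, a share near the 21.7% of all listed transcripts, and their median was 0.108 TPM. The lists overlapped, HTR1 at 4.005 TPM being above POLA1, MCM6, PCNA1 and PCNA2, 4 of the 12 replication genes, and the difference between the lists was not tested. HTA1 and HTA10 were above all 5 H3.1 genes, while HTA2 at 0.444 TPM and HTA4, listed at 0, were below HTR1. The 13 H2A genes summed to 470 TPM and the 5 H3.1 genes to 4.36 TPM, a ratio of 108. This ratio leaves out other H3 genes and does not compare H2A with all H3. HTR10, an H3 gene among the male germline markers, was at 4750 TPM.

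**Figure D3:**
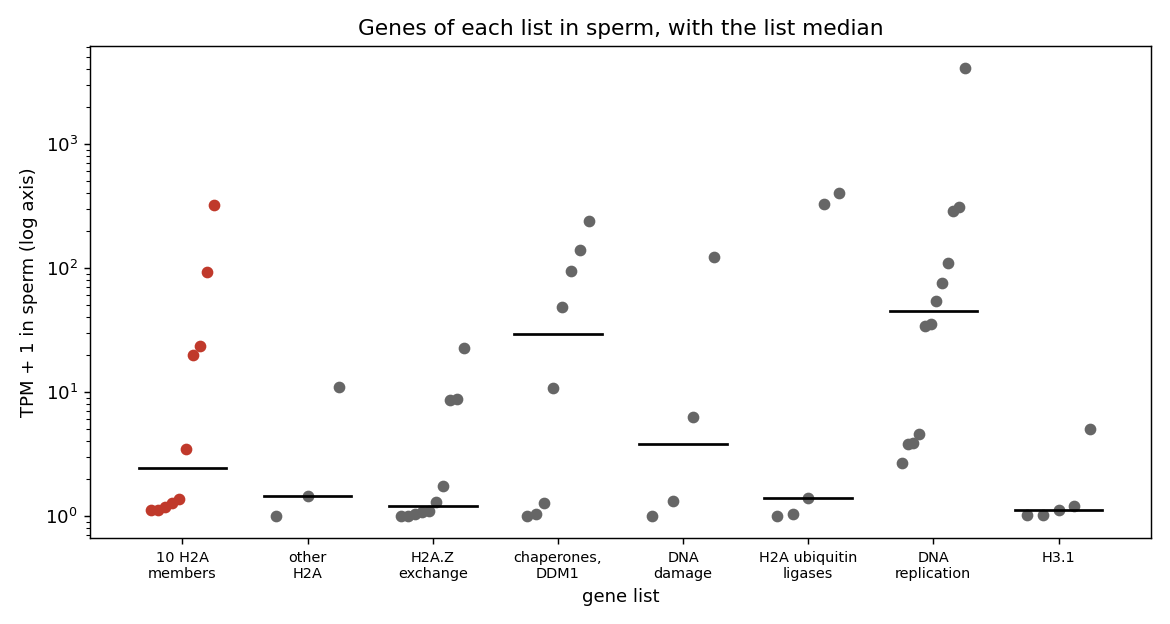
Points give TPM + 1 in sperm, on a log axis, for the 10 H2A genes (red) and for the genes of 7 other lists (grey), with a bar at each list's median. The replication genes have a median of 44.1 TPM, the 10 H2A genes 1.41 TPM and the H3.1 genes 0.108 TPM.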

How the data were processed

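The deposited table gives TPM values that the authors computed per transcript, 1 per locus, and the sperm column sums to 1000000. Tools that the submitters' processing notes list are kallisto 0.43.1, STAR 2.5.2a, Trim Galore 0.4.1, bedtools and SAMtools, with TAIR10 as the build. Their roles are not stated. The sperm column is the mean of 3 libraries, which its digits fit: of 2424 values from 10 to 100 TPM, 100% became whole steps of 1e-05 TPM when multiplied by 3 (tolerance 0.03 steps). Depth is unknown, so no counting interval is given.

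The other 13 value columns belong to none of the samples described and were left out of the results. A first version of the work had used them, so their values had been seen. The planned comparisons of sperm with other tissues are therefore not given. Sums, shares, places and ratios were computed with Python 3.11.15 and pandas 2.3.3. Only the calculations of class shares, places and rescaling were tested on simulated data. No test was run on 1 column of means. The share of all transcripts past each threshold is printed beside the members' count. Members and gene lists were chosen with earlier results of these data known. Named are all members, the 2 highest and 2 lowest genes of each deposition or modification list, and PIE1, ARP6, SWC6, DDM1, ATM and ATR. INO80, SPT16, NRP2, the replication and H3.1 genes and the markers of other tissues were named after their values were seen. Names came from RefSeq's table for TAIR10.1, with 32835 of 33602 loci found. Of 90 list genes 77 had their name there, and none of the 5 H3.1 genes did.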

Additional observations from a re-analysis of the deposited data

How the results depend on the processing

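The members at or above 1 TPM numbered 5 also after rescaling without organellar transcripts. These held only 0.286% of all TPM, so leaving them out could hardly change the count. The count was also 5 after rescaling without the 10 most abundant transcripts, which held 45.4% of all TPM. That last scaling raised each member 1.83 times, to 589 TPM for HTA1. With a threshold of 5 TPM the count was 4, HTA5 dropping out. The class shares over all 13 H2A genes moved by less than 1.5 times, the tolerance used because no replicate spread exists. The 3 added genes summed to only 10.4 TPM, so the shares had little room to move. With only the leading gene of each class, a choice made after seeing the data, canonical H2A held 87.9%, H2A.Z 6.20%, H2A.W 5.20% and H2A.X 0.673%. Leaving out each sperm replicate was not run because the table holds their mean. The alternatives for comparisons with other columns are not given because those columns were left out. No paired analysis was possible because the result comes from no test.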

Other observations

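The H2A total was set beside that of 11 H2B loci, a comparison chosen after the values were seen. Of the 11 names 5 stand in the reference table, and the others rest on locus identifiers. The H2B loci summed to 12094 TPM in sperm and the 13 H2A genes to 470 TPM, a ratio of 25.7. How the H2B sum divides among the 11 loci is not given, so the ratio need not hold for single genes. A canonical H2A gene outside the 10, HTA13, had 9.96 TPM, while HTA2 had 0.444 TPM and HTA4 a listed value of 0.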
